A study of Caenorhabditis elegans with 2 samples.

Results

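The sites described here are the SCRT-1 peaks whose summit, the base of highest enrichment, lay within 100 bp of the annotated start of a nuclear tRNA gene in early Caenorhabditis elegans embryos. Of the 1211 sites in the authors' conservative list, 250 (20.6%) met this rule, and they lay at 252 of the 612 nuclear tRNA genes. Binding was mapped by chromatin immunoprecipitation and sequencing with an anti-GFP antibody on whole embryos of strain OP802, obtained by egg bleaching and 2 h old, in 2 biological replicates. OP802 carries the integrated transgene wgIs802, in which scrt-1 is fused to TY1, EGFP and 3xFLAG tags beside an unc-119(+) rescue marker, in an unc-119 (tm4063) background. All material came from this strain and stage, so there is 1 group and no comparison between conditions. The labels do not say in which cells of the embryo the fusion is made, and untagged embryos were not analysed here.

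tRNA genes are transcribed by RNA polymerase III from promoters that lie inside the gene. The factor TFIIIC binds 2 internal elements, the A box near the start and the B box in the arm of the gene that encodes the T loop, and places TFIIIB on the DNA just upstream of the start. Transcription ends at a run of T after the gene. SCRT-1 is a zinc finger protein of the Scratch group within the Snail superfamily, and its relatives in flies and vertebrates bind the E-box CAGGTG at genes transcribed by RNA polymerase II.

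Worm tRNA genes occur as many identical copies, so a gene with a site can be set beside a copy with the same annotated gene sequence and no site. The sequences below show the strongest site first, then 4 pairs of identical genes, in each of which the first has a site and the second has none. Each begins with 50 bases of upstream flank, read from the WBcel235 (ce11) reference in the direction of transcription, and capitals mark the matches to the A box pattern TNGCNNANN and the B box pattern GTTCNANNC. The pairs come from 4 groups of 15 to 24 identical copies. The gene with a site is the strongest of its group, and the gene without is the first by coordinate.
C04A11.t1, tRNA-Leu (anticodon CAA), chrX:13665505-13665673, plus strand, with a site: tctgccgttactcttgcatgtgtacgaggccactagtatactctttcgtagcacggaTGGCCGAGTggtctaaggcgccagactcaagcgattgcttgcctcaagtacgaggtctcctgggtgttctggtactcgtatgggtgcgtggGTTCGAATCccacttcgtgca
ZK899.t1, tRNA-Pro (TGG), chrX:9467729-9467850, minus strand, with a site: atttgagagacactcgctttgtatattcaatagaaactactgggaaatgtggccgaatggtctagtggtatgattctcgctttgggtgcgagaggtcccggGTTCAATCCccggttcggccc
ZK970.t1, tRNA-Pro (TGG), chrII:10302349-10302470, plus strand, without a site: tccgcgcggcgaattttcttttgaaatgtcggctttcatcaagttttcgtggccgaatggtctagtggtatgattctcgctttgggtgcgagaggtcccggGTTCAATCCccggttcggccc
R04A9.t1, tRNA-Gln (TTG), chrX:410341-410462, plus strand, with a site: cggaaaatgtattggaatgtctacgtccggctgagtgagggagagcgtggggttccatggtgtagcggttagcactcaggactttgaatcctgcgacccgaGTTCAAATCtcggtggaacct
C06E4.t1, tRNA-Gln (TTG), chrIV:7275277-7275398, plus strand, without a site: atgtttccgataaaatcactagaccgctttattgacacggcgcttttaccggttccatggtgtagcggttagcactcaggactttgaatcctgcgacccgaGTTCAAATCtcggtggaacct
ZK563.t1, tRNA-Thr (AGT), chrX:3371422-3371543, minus strand, with a site: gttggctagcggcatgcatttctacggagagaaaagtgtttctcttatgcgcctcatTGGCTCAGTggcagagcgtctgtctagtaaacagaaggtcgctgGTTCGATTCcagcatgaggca
C16C8.t2, tRNA-Thr (AGT), chrII:3439219-3439340, minus strand, without a site: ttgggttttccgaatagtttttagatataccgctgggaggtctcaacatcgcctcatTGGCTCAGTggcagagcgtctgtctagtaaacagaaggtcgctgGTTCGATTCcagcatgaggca
F34H10.t1, tRNA-Ala (AGC), chrX:9637852-9637973, minus strand, with a site: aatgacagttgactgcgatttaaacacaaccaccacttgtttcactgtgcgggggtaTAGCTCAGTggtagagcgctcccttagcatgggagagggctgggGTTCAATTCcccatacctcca
M03A1.t1, tRNA-Ala (AGC), chrII:4565339-4565460, plus strand, without a site: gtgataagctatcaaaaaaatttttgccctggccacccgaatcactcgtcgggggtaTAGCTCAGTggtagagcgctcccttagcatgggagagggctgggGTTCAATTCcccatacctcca

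The authors' signal at ZK899.t1 was 296 in the conservative list, 152 in replicate 1 and 143 in replicate 2. ZK970.t1, an identical gene on another chromosome, had a candidate peak with an irreproducible discovery rate (IDR) of 0.536, far above the 0.01 under which peaks enter the thresholded lists. The IDR of a peak estimates what fraction of the peaks down to its rank would not repeat between replicates. The signals of R04A9.t1 were 194 and 101 in replicates 1 and 2, those of ZK563.t1 were 201 and 131, and those of F34H10.t1 were 171 and 127. The 3 partners C06E4.t1, C16C8.t2 and M03A1.t1 had no candidate summit within 100 bp in the ranked list from both replicates. Members of a pair thus differed in their flanks and in their site, with every base of the gene the same.

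A site was present at 41.2% of the nuclear tRNA genes. By the same rule a site was present at 16.8% of 346 snoRNA genes and at 0.391% of 19973 protein-coding genes. In the wider window from 1000 bp upstream to 200 bp downstream of any start, 2.99% of protein-coding genes had a site. Genes are not replicates, and identical copies share sequence, so these shares and their exact 95% intervals (Clopper-Pearson) describe these 2 libraries and carry no p-value. The number of reads is not given in the sources used here, so depth is unknown. The signal is the authors' own value for each peak, deposited without a stated scale, and it serves below only to rank and describe peaks within a list.

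tRNA sites were among the strongest of the list. Their signal ran from 5.02 to 657 with a median of 170 (quartiles 112 and 262), against a median of 87.4 at the 961 other sites, and they made up 50 of the 100 strongest. The strongest was at C04A11.t1, an intron-containing tRNA-Leu gene printed above, with 363 in replicate 1 and 289 in replicate 2. It was followed by C37A2.t1 (tRNA-Cys, in an intron of the cyclin E gene cye-1) at 533 and W03G11.t1 (tRNA-Lys) at 501. The next were F29C4.t1 (tRNA-Arg) at 499, F15G9.t1 (tRNA-Ala) at 485 and C28G1.t1 (tRNA-Glu) at 481. The other 6 of the 12 strongest lay between 444 and 471 and belonged to tRNA-Ile (F57F5.t1 and T21B4.t1), tRNA-Ser (E03E2.t1), tRNA-Asn (F41D9.t3), tRNA-Trp (sup-5) and tRNA-Lys (C33G3.t2). The strongest sites thus came from tRNAs for 10 amino acids. In each of these 12, both replicates gave a signal of at least 176.

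The weakest site, at C12C8.t1 (tRNA-Gly), had a signal of 5.02, an overlapping candidate of 35.4 in replicate 1 and none in replicate 2. The summit of that candidate lay at -101 bp from the start of C12C8.t1. The same candidate overlapped the site of the neighbouring tRNA-Gly gene C12C8.t6. The next 5 weakest sites were at F39B1.t1 (tRNA-Val) with 57.7, F52E10.t5 (tRNA-Glu) with 71.2, E01H11.t1 (tRNA-Met) with 71.3, F14F7.t1 (tRNA-Thr) with 71.9 and F11A1.t1 (tRNA-Glu) with 72.3. F39B1.t1 and F14F7.t1 also lacked an overlapping candidate in replicate 2. Across all 252 genes, an overlapping candidate was missing at 1 gene in replicate 1 and at 5 in replicate 2.

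Replicate 1 gave the higher values. Its median signal at genes with a site was 92.9 (range 35.1 to 363, n = 251 genes), against 75.6 (range 28.1 to 289, n = 247) in replicate 2, and the median ratio of replicate 1 to replicate 2 was 1.31. Over the 246 genes with a value in both, the ranks followed each other with a Spearman coefficient of 0.859, given as a description. The sites entered the list through an IDR that rewards agreement in rank between these same replicates. A high coefficient therefore follows in part from the selection. ZK507.t1 (tRNA-Asn) departed most in favour of replicate 1, at 164 against 53.6. F52C9.t1 (tRNA-Thr, 44.1 against 77.0), T01B4.t2 (tRNA-Val, 35.1 against 60.6) and ZC132.t1 (tRNA-Gly, 37.0 against 63.2) departed most in favour of replicate 2. All 4 had sites in the conservative list.

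**Figure D1:**
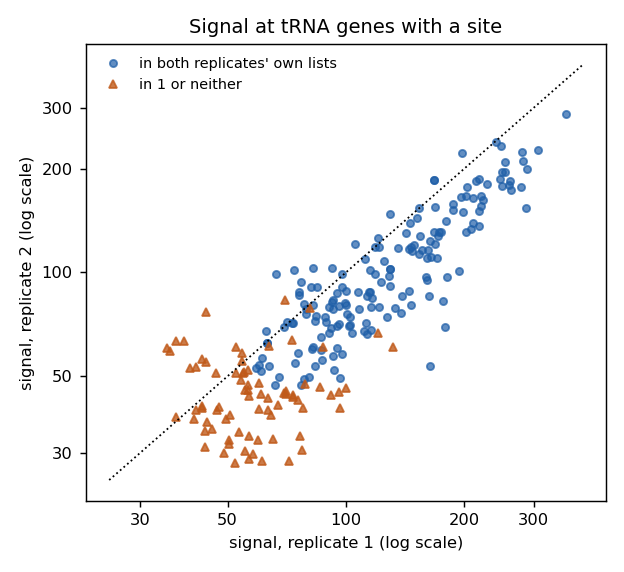
Authors' signal at each tRNA gene with a site in replicate 1 (x axis) and replicate 2 (y axis), both on log scales, for the 246 genes with a value in both; circles are genes whose site is in both replicates' own thresholded lists, triangles those in 1 or neither, and the dotted line marks equal values. Most points lie below the line, where replicate 1 is higher, and the median ratio is 1.31.

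Each replicate also has a thresholded list of its own, with an IDR under 0.01. The sites of 169 of the 252 genes (67.1%, interval 60.9 to 72.8) overlapped a peak in both lists by at least 1 bp, those of 50 in 1 list and those of 33 in neither. Replicate 1's list held 201 of them and replicate 2's held 187. The conservative median signal was 223 where both lists held the site, 108 where 1 did and 83.9 where neither did.

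The summits sat over the first part of the gene. Measured from the annotated start in the direction of transcription, the median position was 20 bp into the gene (quartiles 8 and 33), in genes 64 to 122 bp long with a median of 72. Summits lay inside the gene at 207 of the 252 genes (82.1%), upstream at 35, of which 29 were within 30 bp, and beyond the gene end at 10. The replicates' own summits had medians of 18 bp (replicate 1) and 19 bp (replicate 2), and the median distance between them was 17 bp. The A box match was centred 11 bp into the gene and the B box match at a median of 55 bp. Of the 138 genes with a site and both matches, 103 had the summit nearer the A box, 34 nearer the B box, and 88 had it between the centres. The rule admits only summits within 100 bp of the start. The middle of that window lies nearer the A box, so the selection itself favours the A box in this count. Chromatin was sheared to 200 to 800 bp, longer than a tRNA gene, so the order of summit and boxes within a gene is finer than the fragments.

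**Figure D2:**
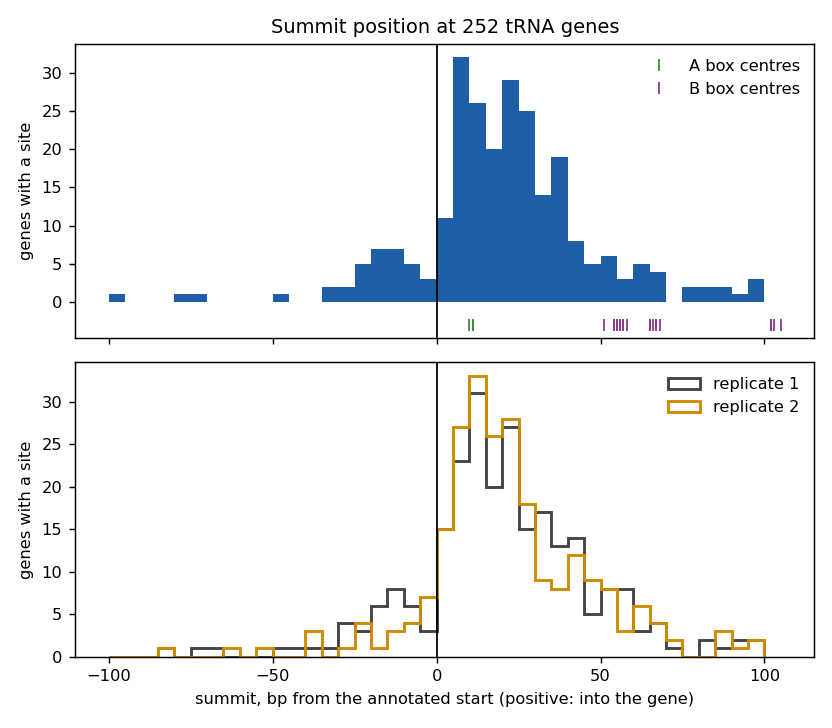
Summit position in bp from the annotated start (x axis, 5 bp bins, positive values into the gene) against the number of genes with a site, from the conservative list with the centres of A box and B box matches as ticks (top) and from each replicate's own ranked list within 100 bp (bottom). The peak of each distribution lies just inside the gene, with medians of 20, 18 and 19 bp, closer to the A box ticks than to the B box ticks. The rule admits only summits within 100 bp of the start, a window whose middle lies nearer the A box ticks.

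Just inside the 100 bp limit lay F14B6.t1 at 100 bp, C53C7.t1 at 100 bp upstream, T23F1.t1 at 98 bp and K01A11.t1 at 96 bp. Just outside it lay M02F4.t2 at 103 bp, F08G5.t2 and Y97E10C.t1 at 107 bp and T23F1.t2 at 112 bp, and 23 genes in all had a summit from 101 to 200 bp away. M02F4.t2 and T23F1.t2 each lie beside another tRNA gene that has a site, M02F4.t1 and T23F1.t1. A site lay within 100 bp of 2 starts in 2 cases, both divergent pairs. The site between F49D11.t1 and F49D11.t2 (both tRNA-Gly) had a signal of 123, and that between C53C7.t1 and C53C7.t2 (tRNA-Ser, anticodons AGA and CGA) had 353.

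Genes with a site had a more GC-rich upstream flank than genes without. The mean GC content of the 50 bases before the start was 47.2% ± 7.95 (SD, n = 252 genes) at genes with a site and 39.4% ± 9.06 (SD, n = 360) at genes without. The ranges overlapped, from 24% to 70% and from 12% to 70%. This comparison over all tRNA genes was added after the data were seen. The GC content of the genes themselves was nearly equal, at 58.6% ± 3.56 and 58.0% ± 3.93. In 25 bp bins the gap was 6.41 percentage points from -100 to -76 bp, 10.1 from -75 to -51, 9.02 from -50 to -26 and 6.64 from -25 to -1. It was 0.229, 1.34 and 0.686 points in the 3 bins that cover most of the gene body. Beyond 100 bp upstream the gap ran from -2.74 to 1.67 points, and downstream of the gene it reached 4.22 points from 125 to 149 bp.

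The share of genes with a site was larger in each class of higher flank GC. With the genes cut into 5 classes, it was 10.2% of 137 genes (interval 5.70 to 16.6) in the class of lowest GC and 30.3% of 132 in the next. It was 46.6% of 103 genes in the middle class, 60.7% of 122 in the next and 64.4% of 118 (55.1 to 73.0) in the highest. The classes are unequal in size because GC contents tie. Among genes with a site, the signal itself followed the flank's GC content only weakly (Spearman coefficient 0.135, a description over genes). The gradient ran on across classes of support: the mean flank GC was 48.4% at genes whose site was in both replicates' own lists, 45.6% in 1, 43.5% in neither. It was 41.3% at genes without a site that had a ranked candidate and 37.7% at those with none. Any dependence of read recovery on GC content was not tested, since the reads and the control library were not analysed here.

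**Figure D3:**
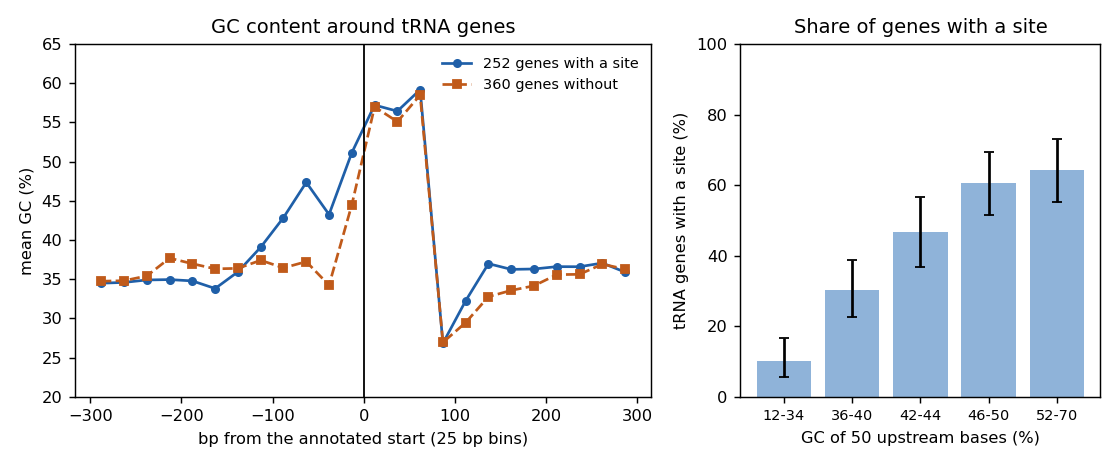
Left, mean GC content in 25 bp bins (y axis, %) by distance from the annotated start in bp (x axis) for the 252 tRNA genes with a site (circles) and the 360 without (squares); right, percent of tRNA genes with a site (y axis) by the GC content of the 50 upstream bases in 5 classes (x axis, range in %), with exact 95% intervals. The lines lie farthest apart from 100 bp upstream to the start, with gaps of 6.41 to 10.1 points, where genes with a site are higher, and the share runs from 10.2% to 64.4%.

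The difference was found across the tRNA gene set. Mean flank GC was higher at genes with a site on 6 of 6 chromosomes and for 20 of 20 amino acids that had genes of both kinds, by 1.00 (tRNA-Trp) to 14.6 (tRNA-Ile) percentage points. Identical copies give the closest comparison, because the annotated gene sequence, boxes included, is the same. Of 57 sequences present in 2 or more copies, 39 had copies with and without a site, 8 had a site at every copy and 10 at none. In these 39 mixed sequences, with 194 copies with a site and 230 without, mean flank GC was higher at the copies with a site in 33 and lower in 6. The median difference was 8.32 percentage points, and the range ran from -10.0 to 22.7.

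The largest group, 29 identical tRNA-Gly genes with anticodon TCC, had a site at 14 copies, with flank GC of 45.6% against 36.3% at the other 15. In the 25 identical tRNA-Lys (CTT) genes a site was present at 13, with 48.2% against 39.8%. The 6 exceptions included tRNA-Ala (TGC, 8 copies, 41.0% against 47.0%) and a 4-copy tRNA-His gene (50% against 60.0%). The printed pairs show how far single genes scatter around these means. Flank GC was 34% at ZK899.t1 against 44% at ZK970.t1, 54% at R04A9.t1 against 42% at C06E4.t1, 46% at ZK563.t1 against 42% at C16C8.t2, and 42% at F34H10.t1 against 44% at M03A1.t1.

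**Figure D4:**
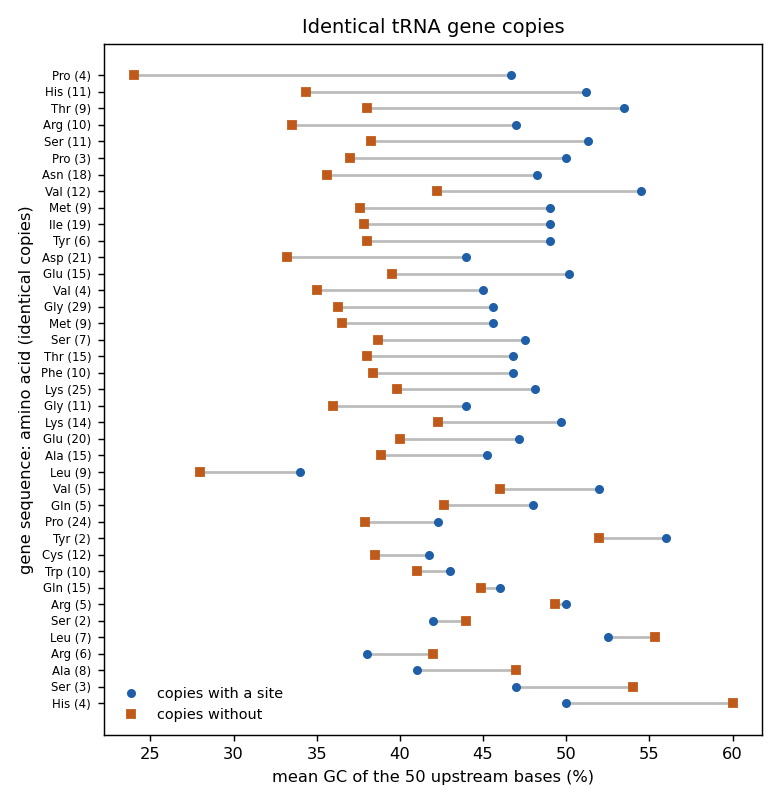
Mean GC content of the 50 upstream bases (x axis, %) for the copies with a site (circles) and without (squares) of each of the 39 tRNA gene sequences that have both, one sequence per line, named by amino acid with the number of identical copies, sorted by the difference. In 33 lines the circle lies to the right of the square, and in the 6 lowest lines it lies to the left.

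Particular bases and words of the same flanks also differed, all chosen after their values were seen. Whether they differ apart from the GC content of the flank was not tested. At genes with a site T stood at position -30 in 63.1% against 47.2% at genes without, G at -25 in 41.7% against 25.3%, C at -24 in 44.8% against 28.1% and C at -23 in 54.4% against 35.3%. Such differences were not confined to these positions. C was also more frequent at genes with a site at -59 (31.75% against 18.06%) and -49 (32.94% against 18.89%), but less frequent at -3 (21.03% against 36.11%). The word GAGAGA, searched on both strands in the 100 bases before the start, was present at 77 genes with a site (30.6%) and 32 without (8.89%), against 17.8% of all tRNA genes. AATTTT went the other way, at 9.52% and 29.7% (21.4% of all). TATAAA was present at 7.14% and 12.5% (10.3% of all). In a different window, within 50 bp of the summit, GAGAGA was present at 25 of the 250 tRNA sites (10%). There it was present at 141 of the 961 other sites (14.7%). Among the printed flanks, those of ZK899.t1 and ZK563.t1 hold GAGAGA and those of ZK970.t1 and M03A1.t1 hold AATTTT.

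The Snail family E-box was about as frequent at genes with a site as at genes without. CAGGTG lay between 100 bp upstream and 150 bp downstream of the start, on either strand, at 62 tRNA genes, of which 27 (43.5%, interval 31.0 to 56.7) had a site. A site was present at 225 of the 550 others (40.9%, 36.8 to 45.2). Within 50 bp of the summit it was present at 9 of the 250 tRNA sites (3.6%) and at 33 of the 961 other sites (3.43%). These letters being present or absent says nothing on how the fusion protein was held at a site.

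Intervals on the share of genes with a site overlapped between genes with and without a match to the A box and B box patterns printed above. The A box pattern matched 337 genes, of which 42.7% had a site (interval 37.4 to 48.2), against 39.3% of the 275 genes without a match (33.5 to 45.3). With C or T allowed at the fourth letter, a form added after the values were seen, 569 genes matched and 42.7% had a site, against 9 of the 43 others (20.9%). The B box pattern matched 587 genes, of which 41.4% had a site, against 9 of 25 without it (36%, interval 18.0 to 57.5). Those 9 were 5 copies of a tRNA-Met gene (F14B6.t1, F14B6.t2, T15B12.t1, F22F1.t6 and E01H11.t1), K11E4.t2 (tRNA-Lys), and 3 genes that matched neither pattern. The 3 were F14B4.t2 (tRNA-Pro, signal 173), C16B8.t2 (tRNA-Pro, 272) and Y69A2AR.t2 (tRNA-Glu, 148). A run of 4 or more T within 40 bases after the gene, the terminator, was present at 605 genes and at all 252 with a site. The 7 genes without one, among them Y95D11A.t1 (tRNA-Phe) and Y75D11A.t2 (tRNA-Arg), had no site (interval 0 to 41.0), against 41.7% of the 605. All 7 are of unique sequence, a class in which 26.6% of genes had a site.

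Sites were spread over nearly all tRNA classes. Of 47 combinations of amino acid and anticodon, 43 had a gene with a site. Among the 20 amino acids with 10 or more genes the share ran from 30.8% for tRNA-Ser (12 of 39 genes, interval 17 to 47.6) to 61.5% for tRNA-Cys (8 of 13, 31.6 to 86.1), and these intervals overlap. Among anticodons with at least 5 genes, tRNA-Glu (TTC) was highest, at 12 of 17 genes (70.6%, interval 44.0 to 89.7), and tRNA-Ser (AGA) lowest, at 3 of 15 (20%, 4.33 to 48.1). The other glutamate anticodon, CTC, had a site at 8 of 24 genes (33.3%). The 3 tRNA-Ser (AGA) signals were 350 at F42A10.t1, 353 at C53C7.t1, whose site is shared with C53C7.t2, and 75.7 at F02E11.t1, whose site is in neither replicate's own thresholded list.

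All 3 tRNA-Leu (TAG) genes had a site, with signals of 299 (C04A2.t1), 250 (W02H3.t1) and 112 (C16D9.t2). Of these, only the site of C04A2.t1 was in both replicates' own thresholded lists. W02H3.t1 had no overlapping candidate in replicate 1. C16D9.t2 had a signal of 33.6 in replicate 2, and its site was not in that replicate's thresholded list. No site was present at the 3 tRNA-Gly (CCC) genes, the 2 tRNA-Arg (CCG) genes, the only tRNA-Arg (GCG) gene or the 5 genes whose amino acid is undetermined in the annotation. The gene for tRNA-Sec, which inserts selenocysteine at UGA codons, is K11H12.t1. It just missed the conservative list, with an IDR of 0.0108 and signals of 52.8 and 27.5 in replicates 1 and 2. The 20 tRNA-Met genes, which are not divided into initiators and elongators here, had 9 with a site (45.0%). They include 2 sequences of 9 copies each, with a site at 5 and at 4 copies.

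**Figure D5:**
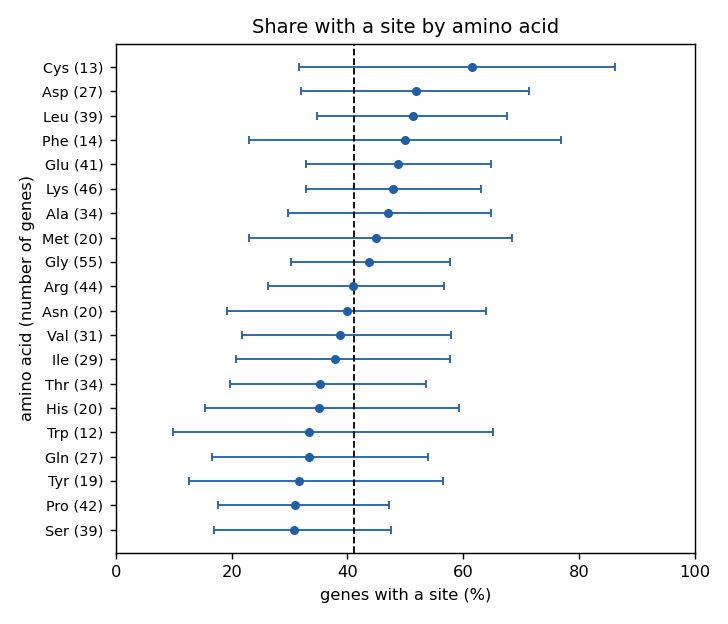
Percent of tRNA genes with a site (x axis) by amino acid (y axis, number of genes in parentheses), with exact 95% intervals; the dashed line is the share over all 612 genes, 41.2%. Shares run from 30.8% to 61.5%, and neighbouring intervals overlap widely.

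The suppressor genes known from worm genetics are tRNA-Trp genes whose mutant alleles read stop codons, and here the reference copies are identical. Of the 10 identical tRNA-Trp copies 4 had a site (40%), near the 41.2% of all nuclear tRNA genes. These 4 are among the 7 copies that are named suppressor loci. The signal in replicates 1 and 2 was 261 and 184 at sup-5, 145 and 88.3 at sup-7, 115 and 87.5 at sup-24, and 90.4 and 66.9 at sup-28. sup-5 lies in an intron of fli-1 and sup-28 in an intron of trk-1. At sup-29 a candidate had an IDR of 0.228. At sup-21 only replicate 1 had a candidate summit within 100 bp of the start, with a signal of 54.5. At sup-33 neither replicate had one. sup-28 and sup-33 are neighbours in the same intron of trk-1 on the same strand, with flank GC of 44% and 38%. sup-29, without a site, had the highest flank GC of the 7 named loci, at 54%.

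Genes that stand alone had a site more often than genes in clusters, which are runs of starts at most 1000 bp apart. The share was 48.4% of 382 genes alone (interval 43.3 to 53.6) and 29.1% of 230 clustered genes (23.3 to 35.5). Of 98 clusters, 43 had no gene with a site, 44 had 1, 11 had 2 or more, and in 6 every gene had one. A clustered gene's nearest site can belong to its neighbour, and 71 of the 163 clustered genes without a site had a neighbour with one. Among pairs that form a cluster by themselves, 17 of 74 genes had a site in head-to-head pairs (23.0%), 17 of 52 in same-strand pairs (32.7%) and 12 of 28 in tail-to-tail pairs (42.9%). Above a flank GC of 40% the share was 64.0% of genes alone (interval 57.5 to 70.1) and 43.9% of clustered genes (34.3 to 53.9). At or below 40% it was 23.3% (16.7 to 31.0) and 16.3% (10.2 to 24.0), and these intervals overlap.

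In the largest clusters, all on the X chromosome, most genes had no site. In the F28H6 cluster, 6 identical tRNA-His genes alternate between the strands, and only F28H6.t5 had a site, with signals of 44.3 and 36.9. Its flank GC was 48%, against 32% to 38% at the other 5. In the F22F1 cluster of 6 genes, F22F1.t6 (tRNA-Met) had signals of 249 and 178 and F22F1.t5 (tRNA-Asp) had 69.4 and 69.6. The other 4 had no site. Of these, F22F1.t3 (tRNA-Asp) had a candidate of 35 in replicate 1 only, and both tRNA-Ser genes had none. F22F1.t7 (tRNA-Ile) had candidates of 27.6 and 30 with an IDR of 0.0711. Flank GC in this cluster was 46% at F22F1.t6 and 38% at F22F1.t5, against 28% to 44% at the other 4. In the K01A12 cluster of 5 genes, K01A12.t2 alone of 3 identical tRNA-Cys genes had a site, with signals of 61.1 and 28.4, although its flank GC of 40% equalled that of K01A12.t4. The sites of F28H6.t5 and K01A12.t2 were in neither replicate's own thresholded list. The H08J11 cluster, with 5 tRNA-Gln genes, had sites at H08J11.t1, with signals of 58.2 and 29.8, and at H08J11.t3, with 60.8 and 51.7. Flank GC was 46% and 38% at these 2 genes and 44% to 46% at the other 3.

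Genes with 2 or more identical copies had a site in 45.6% of 469 cases (interval 41.1 to 50.3), against 26.6% of 143 genes of unique sequence (19.5 to 34.6). The share was 45.4% at 2 to 9 copies and 45.7% at 10 or more. Reads from inside identical copies cannot be told apart, and how the authors placed such reads is not given in the sources used here. Of the 30-mers in the 300 bp around the start, the mean share found once in the genome was 79.7% ± 5.48 (SD, n = 252) at genes with a site and 77.0% ± 16.1 (SD, n = 360) at genes without. Under 50% of the 30-mers were found once at 1 gene with a site and at 28 without.

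By chromosome, a site was present at 50% of 66 genes on I, 50.9% of 57 on II, 50% of 64 on III, 43.7% of 71 on IV, 30.8% of 78 on V and 37.3% of 276 on X. The X chromosome holds 45.1% of nuclear tRNA genes and 40.9% of those with a site. Its sites had a median signal of 211, against 150 on the autosomes. By strand it was 43.3% of 298 genes on the plus strand and 39.2% of 314 on the minus strand, with overlapping intervals (37.6 to 49.1 and 33.7 to 44.8). The share was 39.1% of 322 genes between protein-coding genes and 42.4% of 283 in introns. Within introns it was 40% where the host gene runs on the same strand and 45.9% where it runs on the opposite strand. Of 7 tRNA genes that overlap an exon, 6 had a site (85.7%, interval 42.1 to 99.6), against 41.2% of all nuclear tRNA genes. Genes with an intron of their own had a site in 12 of 29 cases (41.4%), against 41.2% of the 583 without.

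Many genes without a site had a weaker candidate. Of the 360, 167 (46.4%) had a candidate summit within 100 bp in the ranked list from both replicates, with an IDR from 0.0104 to 0.763 and a median of 0.323. The IDR was at most 0.05 at 28 of them and above 0.5 at 44. Their median signal was 43.7, below the lower quartile of 112 at genes with a site, but the ranges overlapped, up to 193. In the replicates' own ranked lists, replicate 1 had a candidate summit within 100 bp of the start at 160 of the 360 genes. Replicate 2 had one at 145, both had one at 98 and neither did at 153 genes. How often ranked candidates lie near the starts of other genes was not computed, so these counts have no background beside them.

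The genes for the machinery that makes tRNAs were a separate question. Of 33 listed genes for RNA polymerase III, its factors and tRNA processing, 29 were matched by name, and 0 of them had a site in the promoter window, against 2.99% of all protein-coding genes. A count of 0 of 29 allows a share of up to 11.9% (exact 95% limit). Those not matched were bdp-1, trnt-1, tsen-1 and rpp-1. In the authors' larger optimal list 1 of the 29, nsun-2, the gene for a tRNA cytosine methyltransferase, had a site, at 13 bp upstream of a start with a signal of 75.6.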

How the data were processed

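Peak lists in ce11 coordinates were used as the authors deposited them, per the submitters' file notes: 7 of 8 lists, from 2 replicate alignments and further files. The sources used here name neither the aligner nor the peak caller, and give no read numbers. The deposited peak signal has no stated scale, and the ranked lists give the IDR as -log10, per the authors' column layout. Each replicate's signal and summit at a site come from that replicate's own ranked list. They are those of the strongest candidate that overlaps the site by at least 1 bp. For genes without a site, the candidate is the one whose summit lay nearest the start, within 100 bp. The paired columns of the list from both replicates, 8 in all, name no sample and were not used, which departs from the planned source.

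Genes are from Ensembl release 115 on WBcel235, the same build as ce11; every peak end lay within the reference chromosome lengths. RefSeq gave names and amino acids (612 of 612 genes matched by WormBase ID). Anticodons were read by a script from a stem and loop (605 genes). Printed sequences come from the RefSeq WBcel235 genome. The A box was searched from gene positions 5 to 12 and the B box in the last 35 bases.

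Shares have exact 95% intervals and no tests. Named genes were those with the 12 highest and 6 lowest signals, shared sites, extreme anticodons, the largest clusters, genes next to the 100 bp limit, identical copies (printed pairs only from groups with no copy on chromosome I), genes without boxes, suppressor and tRNA-Sec genes, and those whose replicates differed most; other names were chosen after their values were seen. The genes, lists and comparisons were chosen with earlier results of these data known. Assignment of summits to genes was tested on simulated data. Python 3.11.15, pandas 2.3.3 and scipy 1.17.1 were used.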

Additional observations from a re-analysis of the deposited data

How the results depend on the processing

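No paired analysis was possible because the series has 1 group. Of 123 recomputed values, 106 stayed within the main interval, or within 1.5 times the main count. The count of genes with a site lay between 176 (IDR at most 0.001) and 280 (IDR at most 0.05), apart from subsets. Counting each sequence once left 85 with a site and 85 sites, and genes with both boxes left 138 of each. The GC difference, 7.83 percentage points, was 6.04 with each sequence once (flank GC averaged over copies), 6.64 and 8.04 with flanks of 25 and 100 bases, and 7.36 among genes with 75% or more of their 30-mers found once. This comparison and its alternatives were chosen after seeing the data. From the thresholded list of either replicate alone it was 7.65 to 7.91. The gap between genes alone and clustered, 19.3 points, fell to 10.7 within 200 bp, where neighbours share a site. The copy number gap, 19.1 points, became 55.9 with each sequence counted once, since any bound copy then counts. The B box gap, 5.40 points, turned to -1.92 in the optimal list and -10.7 at an IDR of 0.05, and ran from -1.42 to 12 with 1 replicate left out, so it has no direction. The A box gap was 3.46 points and 21.8 with the relaxed pattern, chosen after seeing the data. Median signal, 170, was 214 at an IDR of 0.001, 183 with both boxes, and 87.6 to 107 without 1 replicate. Recurrence fell from 67.1% to 54% at 50% reciprocal overlap. Of the polymerase III list, 1 gene had a site in the optimal list. Unknown depth limits what an absent site says. The anticodon and box differences could not be computed among genes with both boxes, nor the cluster difference among genes alone.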
